A study of Mus musculus with 6 samples.

Results

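The genes described here are the potassium channel genes of the mouse cerebellum, that is, the 94 genes of 24537 measured whose symbols start with Kcn followed by a family letter and a number. The rule matched 97 symbols, and the noncoding RNA Kcnq1ot1 and the choroid plexus genes Kcne2 and Kcnj13 were set aside. Besides pore-forming subunits the 94 genes hold their associated subunits and 3 noncoding genes named after a channel gene, Kcnd3os, Kcnmb4os1 and Kcnmb4os2. RNA was sequenced from cerebella of 2 groups of male mice at 6 weeks of age, with 3 libraries in each. The HET mice were Reln heterozygous nulls and have Orl/BalbC as their strain label. The WT mice were wild type and have C57BL/6 as their strain label. Genotype and strain therefore cannot be told apart in any comparison below. Nothing in the labels states that each library is a different animal, so the p-values measure the spread between these libraries, which may be technical. Reln encodes reelin, a secreted protein that guides the placement of neurons, and the study compared gene expression in the cerebellum between these genotypes.

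Potassium channels let potassium ions leave the cell and so set its resting potential, end its action potentials and limit its firing rate. Voltage-gated (Kv) channels open on depolarization, calcium- and sodium-activated channels open when those ions enter, inward rectifiers (Kir) hold the resting potential or answer to G proteins and ATP, and two-pore-domain (K2P) channels carry leak current. Kv channels of the Kv1, Kv3 and Kv4 families are well known in the cerebellum, where Purkinje cells and interneurons fire fast and granule cells carry a strong transient potassium current. Associated subunits do not conduct: they alter the gating and the surface number of the channels they join.

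Levels within the family differed widely, also between neighbouring genes. Kcna2, Kcna3 and Kcna10 encode Kv1 subunits and lie in a row on the plus strand of chromosome 3, with gaps of 63.1 kb between Kcna3 and Kcna2 and 68.1 kb between Kcna2 and Kcna10 by GENCODE M21. Per exon length their mean levels over the 6 libraries were 54.0 RPKM for Kcna2, 1.51 RPKM for Kcna3 and 0.00727 RPKM for Kcna10. The 250 bases before the 1 start that the RefSeq promoter table gives for each gene are shown because these 3 close relatives differ so much in level; they are on GRCm38.p6, at chr3:107101317-107101566 for Kcna2, chr3:107035912-107036161 for Kcna3 and chr3:107182893-107183142 for Kcna10. Starts differ between the annotations: the Kcna2 window lies inside the gene as GENCODE draws it, and the Kcna10 window runs past the GENCODE start. Capitals mark each CG dinucleotide, which reads the same on both strands.
Kcna2: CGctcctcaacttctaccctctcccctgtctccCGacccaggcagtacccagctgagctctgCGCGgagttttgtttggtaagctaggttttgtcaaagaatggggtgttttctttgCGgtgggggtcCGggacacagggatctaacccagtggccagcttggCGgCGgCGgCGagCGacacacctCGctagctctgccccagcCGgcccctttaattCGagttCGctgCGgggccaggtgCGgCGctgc
Kcna3: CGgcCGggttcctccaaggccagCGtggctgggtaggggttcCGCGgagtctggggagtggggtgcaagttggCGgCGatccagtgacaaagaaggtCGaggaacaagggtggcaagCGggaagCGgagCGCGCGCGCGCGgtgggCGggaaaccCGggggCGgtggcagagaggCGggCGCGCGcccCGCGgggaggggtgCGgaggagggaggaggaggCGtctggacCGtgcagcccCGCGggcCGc
Kcna10: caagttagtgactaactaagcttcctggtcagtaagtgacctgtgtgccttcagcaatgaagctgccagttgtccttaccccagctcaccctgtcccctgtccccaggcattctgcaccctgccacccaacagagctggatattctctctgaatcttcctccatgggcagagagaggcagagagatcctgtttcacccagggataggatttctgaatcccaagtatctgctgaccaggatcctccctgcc
The window of Kcna2 held 18 CG, that of Kcna3 held 31 and that of Kcna10 held 0. Among 27025 genes with such a window 92.3% held at least 1 CG, 23.6% held at least as many as Kcna2 and 5.86% held at least as many as Kcna3. RefSeq windows were matched by symbol for 68 of the 94 potassium channel genes, with a median of 12 CG, against 6 over all genes. The median was 14 in the 36 members with a level of at least 1 RPKM per exon length and 9.5 in the 32 below it. Over all genes with both a window and a level per exon length, the same medians were 17 in 9309 genes and 3 in 8104 genes. Kcna3 had the most CG of these 3 genes and a low level, so the number of CG did not order the 3 by level.

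The level of a member depended strongly on the length by which its reads are divided. The labels give the unit of the deposited values as FPKM, fragments scaled by exon length and by library size, but low values fell on whole reads when multiplied by the genomic span of the gene, introns included. This held for 78.5% to 81.1% of the low values in each library, with a tolerance of 0.05 reads, against 10.7% to 11.8% with exon lengths. For genes with long introns the deposited value is therefore far below a value per exon length. Each deposited value was multiplied by the gene span and divided by the exon length of 1 transcript, which gives reads per kilobase of exon, scaled to library size as the authors did (RPKM per exon length). All 94 members could be rescaled. On the deposited scale 21 members reached a mean of 1 FPKM, and on the scale per exon length 47 members reached 1 RPKM. All 21 were among the 47. Kcnip4, which spans 1136 kb, ranked 43rd among the members by deposited FPKM and 2nd per exon length. Kcnd2, with a span of 514.5 kb, ranked 31st by deposited FPKM and 5th per exon length. Whether reads in introns were counted is not known. If they were, genes with long introns such as these rank too high per exon length. Both Kcnip4 and Kcnd2 were picked for naming after their values were seen, as were all members outside those that a rule on deposited FPKM names. The rescaling cancels in a ratio between libraries, so it leaves each HET to WT ratio as it was, and it affects only comparisons between genes, the filter on low values and the log2(value + 1) scale.

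**Figure D1:**
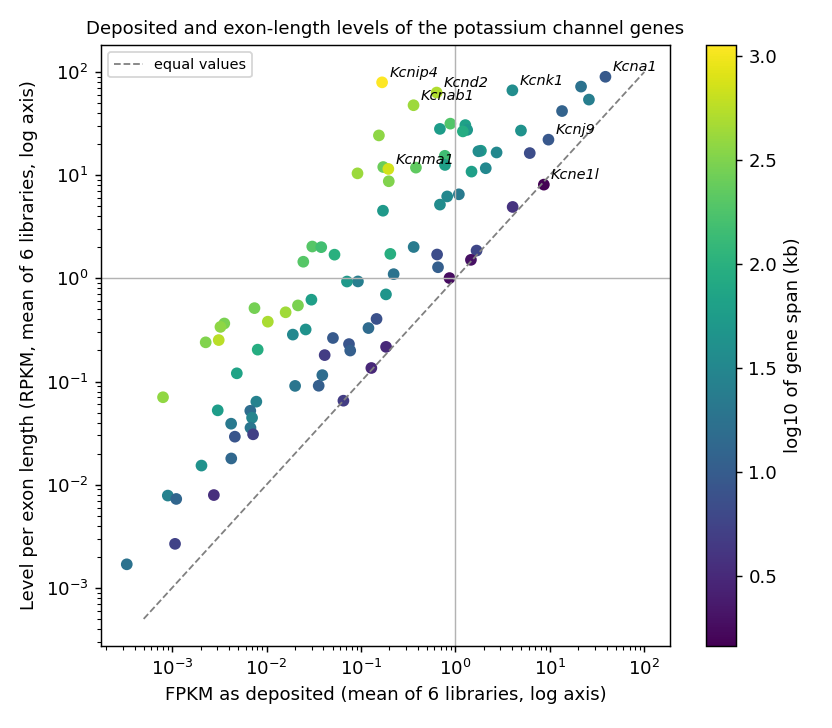
Mean level of each potassium channel gene over the 6 libraries, as deposited (x axis, FPKM, log axis) and per exon length (y axis, RPKM, log axis), with 1 point per gene coloured by log10 of its genomic span in kb; genes listed at 0 in every library are not drawn. The height of a point above the line of equal values is set by the gene span divided by the exon length. It is mostly greater for longer genes, but not in strict order of span, and Kcne1l lies just below the line. In all, 26 genes stand above 1 on the y axis but below 1 on the x axis.

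Across the whole series, approximate depths recovered from the steps between low values ran from 22660000 to 28340000 reads per library. Reln stood at 0.531, 0.509 and 0.580 FPKM in HET libraries, against 0.834, 0.771 and 0.940 FPKM in WT libraries, a ratio of 0.636. The groups did not overlap, and the exact two-sided permutation test on log2(FPKM + 1) gave p = 0.1, the smallest that 3 against 3 libraries allow. Granule cell and Purkinje cell markers were high in every library, while the forebrain gene Emx1 and 3 Hox genes of the brainstem and spinal cord were at or near 0. Neurod6, another of the forebrain markers, was at 1.43, 1.34 and 1.46 RPKM in HET libraries, against 1.74, 0.848 and 1.69 RPKM in WT libraries per exon length. WT library 2 had the lowest values overall: of 12001 genes at 1 RPKM or more, 74.0% were lowest there, and reads in genes made up 65.2% of its depth, against 76.3% to 86.6% in the other libraries. Choroid plexus markers varied between libraries of both groups, with sums over 10 genes of 35.0, 1388 and 63.9 RPKM in HET libraries and 2424, 9.47 and 1334 RPKM in WT libraries, and 10 of 10 had a lower HET mean. The part of these differences in the results on potassium channel genes was not tested, apart from the values after scaling and with libraries left out. In whole tissue, fewer cells of a type and less RNA per cell cannot be told apart.

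Per exon length, 28 members had a mean of at least 10 RPKM over the 6 libraries, 19 lay between 1 and 10, 25 between 0.1 and 1, and 22 below 0.1. The last of these groups includes Kcnmb3, Kcnk16 and Kcnmb4os1, which were listed at 0 in all 6 libraries. The 10 members with the highest levels held 59.5% of the summed RPKM of the family; among them were Kcna1, Kcnip4, Kcnk1, Kcnd2, Kcna2, Kcnab1, Kcng4, Kcnj3 and Kcnip3. Neighbours in the order of level were mostly close. Their ranges over the libraries include differences in scale between libraries, so an overlap does not mean that the order changed within a library. Kcna1, for example, was above Kcnip4 in every library with RefSeq spans. Among the 28 members at 10 RPKM or more, the ranges of the 6 libraries overlapped in 26 of 27 neighbouring pairs, the exception being Kcnj9 and Kcnt1. The choice of gene model moved levels by more than the spread between libraries in places, by the same factor in every library. With GENCODE spans in place of RefSeq spans, 4 of the 47 members at 1 RPKM or more were over 1.5 times lower: Kcna1 came to 57.6 RPKM, below Kcnip4, Kcna2 to 31.0 RPKM, Kcnab1 to 29.8 RPKM and Kcna4 to 1.13 RPKM. Kcnj11 was higher, at 8.75 RPKM. With the union of exons in place of 1 transcript, 9 of the 10 leading members stayed among the first 10, but 11 of the 47 were over 1.5 times lower, 7 of them over 2 times. For these 7 the union gave 18.0 RPKM for Kcnab1, 11.5 RPKM for Kcnmb4 and 9.09 RPKM for Kcnip1. It gave 5.70 RPKM for Kcnj6, 5.13 RPKM for Kcnn2, 0.839 RPKM for Kcnc2 and 0.553 RPKM for Kcnn3.

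**Figure D2:**
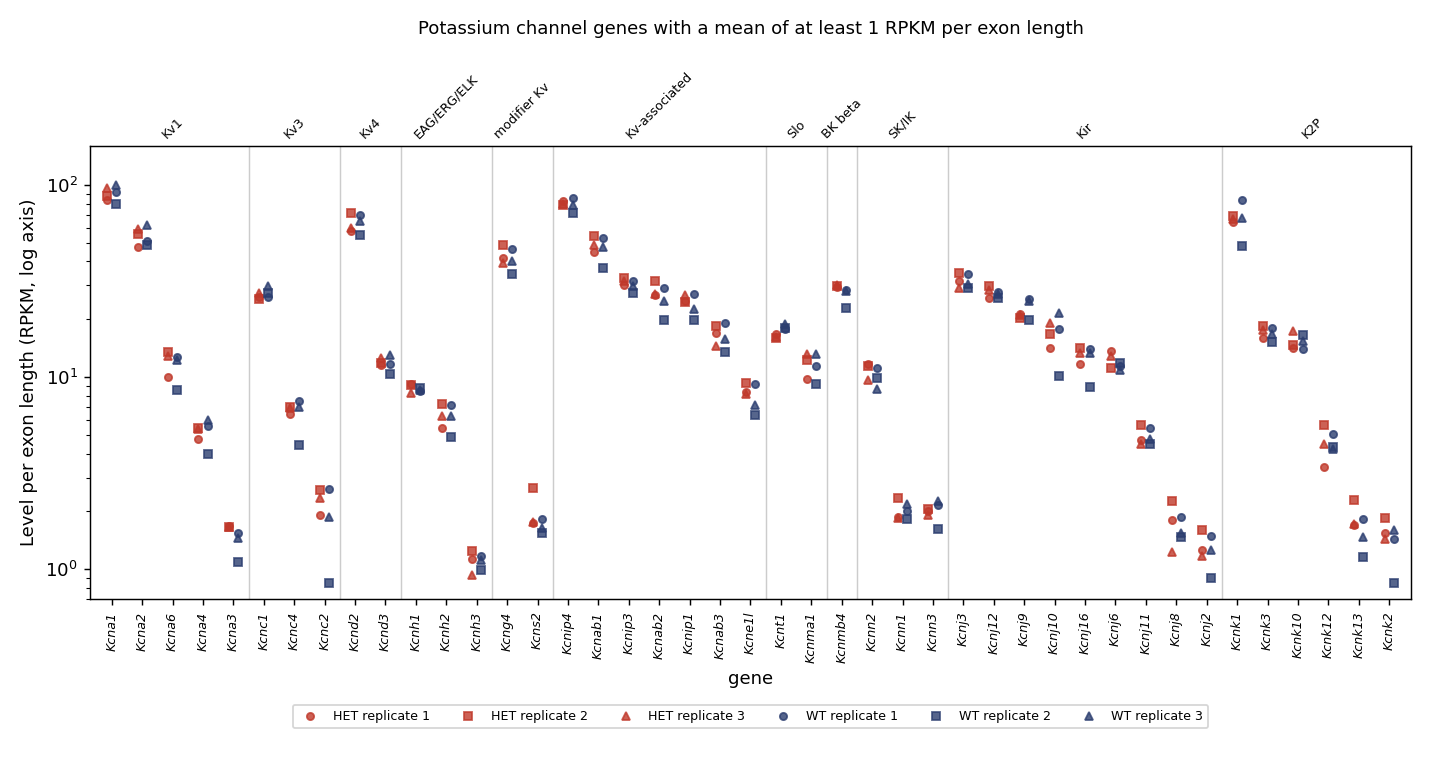
Level per exon length (RPKM, log axis) of the potassium channel genes with a mean of at least 1 RPKM, 1 point per library, grouped by role class, with HET libraries in red left of WT libraries in blue. The noncoding gene Kcnmb4os2 and a few coding genes are not drawn. Differences between genes span about the whole axis, while the HET and WT points of a gene mostly lie in the same range.

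Kv1 subunits form low-threshold channels that hold back firing, and Kcna1 and Kcna2 are known from basket cell terminals around Purkinje cell axons and from the flanks of nodes of Ranvier. Kcna1 (ENSMUSG00000047976, chr6:126640397-126646384, minus strand, GRCm38) had the highest mean level of all 94 genes with RefSeq spans, at 83.7, 88.0 and 96.1 RPKM in HET libraries, against 92.1, 79.5 and 99.7 RPKM in WT libraries per exon length. The range of the WT libraries enclosed that of the HET libraries. Kcna2 (ENSMUSG00000040724) was at 47.8, 55.3 and 59.2 RPKM in HET libraries, against 50.9, 48.5 and 62.2 RPKM in WT libraries per exon length. Its lowest value was in a HET library and its highest in a WT library. Kcna6 was lower, with 10.1, 13.5 and 12.8 RPKM in HET libraries, against 12.8, 8.59 and 12.3 RPKM in WT libraries per exon length, and WT library 2 was the lowest. Kcna4, which encodes a subunit with fast inactivation, averaged 5.20 ± 0.390 RPKM in HET libraries and 5.17 ± 1.05 RPKM in WT libraries per exon length with the RefSeq span (SD, n = 3 each). Kcna3 (ENSMUSG00000047959, chr3:107036169-107038070, plus strand) encodes the subunit best known from lymphocytes, and on the deposited scale it was at 1.62, 1.59 and 1.60 FPKM in HET libraries, against 1.49, 1.06 and 1.40 FPKM in WT libraries. All HET libraries were above all WT libraries for Kcna3, and WT library 2 was the lowest by a wide margin. The difference in mean log2(FPKM + 1), HET minus WT, was 0.17 (SE 0.10, limma adjusted p = 0.90). Kcna5, Kcna7 and Kcna10 had mean levels of 0.135, 0.00267 and 0.00727 RPKM per exon length. Another row of Kv1 genes, Kcna6, Kcna1 and Kcna5, lies on the minus strand of chromosome 6, with gaps of 61.9 kb and 105.0 kb on either side of Kcna1, and their mean levels per exon length were 11.7, 89.8 and 0.135 RPKM.

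Kv3 channels open and close fast enough for high firing rates. Kcnc1, known from granule cells and deep nuclei, was at 26.1, 25.5 and 27.4 RPKM in HET libraries, against 26.0, 27.5 and 29.9 RPKM in WT libraries per exon length, where the groups overlapped. Kcnc4 averaged 6.76 ± 0.286 RPKM in HET libraries and 6.28 ± 1.64 RPKM in WT libraries per exon length (SD, n = 3 each). Kcnc2, a subunit known from fast-spiking interneurons, was low, with 1.92, 2.59 and 2.36 RPKM in HET libraries, against 2.61, 0.852 and 1.88 RPKM in WT libraries per exon length. WT library 2 stood well below the other 5 for Kcnc2. Its difference in mean log2(RPKM + 1), 0.29 (95% interval -0.10 to 0.68), was the highest of the 47 members tested per exon length and did not pass the test.

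Kv4 channels carry the transient A-type current below threshold and depend on cytosolic KChIP subunits, which the Kcnip genes encode. Kcnd2 (chr6:21215503-21729805, plus strand), the Kv4 gene known from granule cells, was at 57.6, 71.8 and 60.0 RPKM in HET libraries, against 70.1, 54.8 and 64.9 RPKM in WT libraries per exon length. Kcnd3, whose human counterpart is an ataxia gene, averaged 11.9 ± 0.514 RPKM in HET libraries and 11.7 ± 1.35 RPKM in WT libraries (SD, n = 3 each), and Kcnd1 averaged 0.330 RPKM over the 6 libraries, both per exon length. Among the KChIP genes, Kcnip4 (chr5:48389502-49524907, minus strand) stood at 82.4, 78.5 and 79.8 RPKM in HET libraries, against 85.9, 71.3 and 78.3 RPKM in WT libraries per exon length, a narrow range in both groups. Kcnip3, whose product is also known as the transcriptional repressor DREAM, averaged 31.5 ± 1.39 RPKM in HET libraries and 29.7 ± 2.21 RPKM in WT libraries (SD, n = 3 each). Kcnip1 averaged 25.4 ± 1.10 RPKM in HET libraries and 23.1 ± 3.67 RPKM in WT libraries (SD, n = 3 each), and Kcnip2 averaged 0.933 RPKM over all libraries, again per exon length. Per exon length Kcnip4 thus had the highest level of the 4 KChIP genes in every library, as Kcnd2 had among the 3 Kv4 genes. On the deposited scale Kcnip4 averaged 0.167 FPKM, below Kcnip3 at 1.27 FPKM, while Kcnd2 was still the highest Kv4 gene. If reads in introns were counted, the level of Kcnip4 per exon length is too high, which was not tested.

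The Kcnab genes encode the beta subunits of Kv1 channels. Kcnab1 averaged 49.4 ± 4.60 RPKM in HET libraries and 45.8 ± 7.96 RPKM in WT libraries per exon length (SD, n = 3 each). Kcnab2 (ENSMUSG00000028931) was at 26.6, 31.8 and 27.1 RPKM in HET libraries, against 29.1, 19.8 and 25.0 RPKM in WT libraries per exon length, with the highest value in HET library 2 and the lowest in WT library 2. On the deposited scale its difference in mean log2(FPKM + 1) was 0.12 (SE 0.09, limma adjusted p = 0.90). Kcnab3 was at 16.9, 18.3 and 14.6 RPKM in HET libraries, against 19.1, 13.4 and 15.9 RPKM in WT libraries per exon length, with overlapping groups. Of the single-pass Kcne subunits, which slow or silence Kv channels, Kcne1l on chromosome X was the one above 1 RPKM, at 8.41, 9.33 and 8.18 RPKM in HET libraries, against 9.15, 6.32 and 7.18 RPKM in WT libraries per exon length. Its deposited difference in mean log2(FPKM + 1), 0.19 (SE 0.15, limma adjusted p = 0.90), was the highest of the 21 members tested on that scale and did not pass the test. Kcne1, Kcne3 and Kcne4 had mean levels of 0.0180, 0.0292 and 0.217 RPKM per exon length.

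Modifier subunits are silent alone and act by joining Kv2 channels. Kcng4 was by far the highest of the 10 modifier genes, at 41.8, 48.9 and 39.5 RPKM in HET libraries, against 46.1, 34.3 and 40.3 RPKM in WT libraries per exon length. Kcns2 followed with 1.74, 2.66 and 1.75 RPKM in HET libraries, against 1.82, 1.53 and 1.64 RPKM in WT libraries per exon length, and HET library 2 stood above the rest. The other 8 modifier genes had means of 0.0390 to 0.621 RPKM. The Kv2 gene Kcnb2 averaged 0.469 RPKM over all libraries per exon length.

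Kv7 channels carry the M-current, which damps repeated firing. Kcnq3 averaged 0.546 RPKM over the 6 libraries, while Kcnq5 and Kcnq1 averaged 0.252 and 0.240 RPKM, all per exon length. In the EAG, ERG and ELK group, Kcnh1 averaged 8.86 ± 0.552 RPKM in HET libraries and 8.60 ± 0.121 RPKM in WT libraries per exon length (SD, n = 3 each). Kcnh2, which encodes the ERG channel known from cardiac repolarization, averaged 6.34 ± 0.912 RPKM in HET libraries and 6.10 ± 1.17 RPKM in WT libraries per exon length (SD, n = 3 each). Kcnh3 averaged 1.10 RPKM over all libraries, and the other 5 genes of that group lay below 1 RPKM per exon length.

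Channels gated by intracellular ions came next. Kcnt1 (ENSMUSG00000058740, chr2:25863734-25918273, plus strand) encodes the sodium-activated channel Slack, and per exon length it was at 16.7, 15.9 and 16.2 RPKM in HET libraries, against 17.9, 18.0 and 18.8 RPKM in WT libraries. All HET libraries were below all WT libraries. The deposited difference in mean log2(FPKM + 1) was -0.11 (SE 0.11, limma adjusted p = 0.90). Kcnma1, which encodes the pore of the calcium-activated BK channel, averaged 11.7 ± 1.78 RPKM in HET libraries and 11.2 ± 1.97 RPKM in WT libraries per exon length (SD, n = 3 each). Kcnmb4 (chr10:116417861-116473878, minus strand), the BK beta subunit typical of neurons, was at 29.3, 29.7 and 30.2 RPKM in HET libraries, against 28.5, 22.8 and 27.9 RPKM in WT libraries per exon length. HET libraries were close together and all above the WT libraries, and the difference in mean log2(RPKM + 1) was 0.17 (95% interval -0.12 to 0.47). The noncoding genes Kcnmb4os1 and Kcnmb4os2 overlap Kcnmb4 on the opposite strand; Kcnmb4os1 was listed at 0 and Kcnmb4os2 averaged 0.957 ± 0.159 RPKM in HET libraries and 1.05 ± 0.298 RPKM in WT libraries per exon length (SD, n = 3 each). Other BK beta genes were at 0.365 RPKM for Kcnmb2 and 0.0909 RPKM for Kcnmb1. Among small-conductance calcium-activated channels, Kcnn2, the form known from Purkinje cells, averaged 10.9 ± 1.07 RPKM in HET libraries and 9.92 ± 1.25 RPKM in WT libraries per exon length (SD, n = 3 each). Kcnn1 and Kcnn3 averaged 2.01 and 2.00 RPKM, and Kcnn4, known from blood cells, 0.0520 RPKM per exon length.

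Inward rectifiers are neuronal, glial or vascular. The genes for the G protein-gated subunits GIRK1, GIRK3 and GIRK2 were Kcnj3, Kcnj9 and Kcnj6. Kcnj3 averaged 31.8 ± 2.72 RPKM in HET libraries and 31.3 ± 2.67 RPKM in WT libraries per exon length (SD, n = 3 each). For Kcnj6 the mean was 12.6 ± 1.24 RPKM in HET libraries and 11.4 ± 0.497 RPKM in WT libraries per exon length (SD, n = 3 each). Kcnj9 (ENSMUSG00000038026, chr1:172320501-172329318, minus strand) was at 21.4, 20.2 and 21.0 RPKM in HET libraries, against 25.4, 19.7 and 24.8 RPKM in WT libraries per exon length. HET libraries lay in a narrow range, below WT libraries 1 and 3 and above WT library 2. The deposited difference in mean log2(FPKM + 1) was -0.14 (SE 0.15, limma adjusted p = 0.90). Kcnj12, a strong rectifier, averaged 28.0 ± 2.04 RPKM in HET libraries and 26.9 ± 0.993 RPKM in WT libraries per exon length (SD, n = 3 each). Kcnj10 and Kcnj16 encode the glial pair Kir4.1 and Kir5.1, which take up potassium around neurons. Kcnj10 was at 14.2, 16.7 and 19.1 RPKM in HET libraries, against 17.9, 10.1 and 21.5 RPKM in WT libraries per exon length, and both extremes were WT libraries. Kcnj16 was at 11.7, 14.1 and 13.3 RPKM in HET libraries, against 14.1, 8.84 and 13.4 RPKM in WT libraries per exon length, and WT library 2 was the lowest for both. The summed level of 6 astrocyte and Bergmann glia markers was 1365, 1462 and 1277 RPKM in HET libraries and 1422, 994.1 and 1214 RPKM in WT libraries, also lowest in WT library 2. That library was the lowest for 74.0% of all genes at 1 RPKM or more. The marker sum was highest in HET library 2, whereas Kcnj10 was highest in WT library 3. Kcnj16 was at 14.1 RPKM in both HET library 2 and WT library 1. The part of glia or of library scale in the values of Kcnj10 and Kcnj16 was not tested. The ATP-sensitive channel gene Kcnj11 was at 4.71, 5.64 and 4.50 RPKM in HET libraries, against 5.42, 4.48 and 4.75 RPKM in WT libraries per exon length. Kcnj8, its counterpart in mural cells of blood vessels, averaged 1.77 ± 0.514 RPKM in HET libraries and 1.64 ± 0.215 RPKM in WT libraries per exon length (SD, n = 3 each). The strong rectifier Kcnj2 averaged 1.35 ± 0.229 RPKM in HET libraries and 1.21 ± 0.292 RPKM in WT libraries per exon length (SD, n = 3 each). Kcnj1, Kcnj4, Kcnj5, Kcnj14 and Kcnj15 lay below 1 RPKM.

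Two-pore-domain channels carry background current, which in granule cells sets the resting potential. Kcnk1 (TWIK1) was at 64.4, 69.1 and 66.7 RPKM in HET libraries, against 83.1, 47.9 and 67.4 RPKM in WT libraries per exon length, with the lowest and the highest value in WT libraries. Kcnk3 (TASK1) was at 16.0, 18.5 and 17.6 RPKM in HET libraries, against 18.1, 15.3 and 16.8 RPKM in WT libraries per exon length. The groups overlapped for Kcnk1 and for Kcnk3. Kcnk10 (TREK2) averaged 15.5 ± 1.75 RPKM in HET libraries and 15.3 ± 1.23 RPKM in WT libraries per exon length (SD, n = 3 each). Kcnk12 averaged 4.51 ± 1.11 RPKM in HET libraries and 4.54 ± 0.434 RPKM in WT libraries per exon length (SD, n = 3 each). Kcnk9 (TASK3), a partner of TASK1 known from granule cells, averaged 0.699 RPKM per exon length over the 6 libraries. Kcnk13 (THIK1), known from microglia, was at 1.70, 2.30 and 1.73 RPKM in HET libraries, against 1.82, 1.15 and 1.47 RPKM in WT libraries per exon length. Microglia markers summed to 33.3, 60.7 and 36.1 RPKM in HET libraries, against 42.5, 24.3 and 32.1 RPKM in WT libraries, highest in HET library 2 and lowest in WT library 2 like Kcnk13. The scale factors of the libraries over all genes were also highest in HET library 2, at 1.133, and lowest in WT library 2, at 0.838. The part of microglia or of library scale in the values of Kcnk13 was not tested. Kcnk2 (TREK1) averaged 1.60 ± 0.211 RPKM in HET libraries and 1.29 ± 0.393 RPKM in WT libraries per exon length (SD, n = 3 each), and the other 7 K2P genes lay below 1 RPKM.

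No potassium channel gene passed the test between HET and WT cerebellum, at an adjusted p under 0.05. The measured differences on log2(value + 1) were small for the members with a mean of at least 1. The added 1 understates changes of low genes, and members below that mean were not tested on this scale. On the deposited scale limma tested the 21 members with a mean of at least 1 FPKM and called 0, against 5 of 6358 genes in all, or 0.0786%. At an unadjusted p under 0.05 it also gave 0 of 21, where all genes gave 3.33%. The lowest adjusted p of a member was 0.90. HET means were higher for 16 members and lower for 5; over all genes 83.1% were higher. The median difference in log2(FPKM + 1) was 0.04 over the members and 0.08 over all genes, and the members ran from -0.14 for Kcnj9 to 0.19 for Kcne1l. All 21 intervals at 95% lay within -0.5 and 0.5, so larger changes on this scale lie outside the intervals of these members. The groups did not overlap for 2 of 21 members, Kcna3 with HET higher and Kcnt1 with HET lower, against 5.55% of all genes; 4.81% of all genes had HET higher in this way and 0.739% HET lower.

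Division by exon length brought in more members and gave the same count. Of 47 members tested, limma called 0 on log2(RPKM + 1), as it did for all 12001 genes, or 0%. Reln itself was not called in this fit, with a difference of -0.63 (SE 0.14, limma adjusted p = 0.99). On the deposited scale Reln was below the filter and was not tested by limma. A count of 0 thus does not show that the members were unchanged. At an unadjusted p under 0.05 there were 0 of 47 members, against 2.24% of all genes. HET means were higher for 39 members and lower for 8, and 77.1% of all genes were higher. The median difference was 0.05 over the members and 0.08 over all genes, with members from -0.16 for Kcnt1 to 0.29 for Kcnc2. Intervals of 43 of 47 members lay within -0.5 and 0.5. Kcna3, Kcnmb4 and Kcnt1 were the 3 members whose groups did not overlap, against 5.67% of all genes, of which 4.62% had HET higher and 1.05% HET lower. The remaining 47 of the 94 members were not tested in this fit because their mean was below 1 RPKM.

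**Figure D3:**
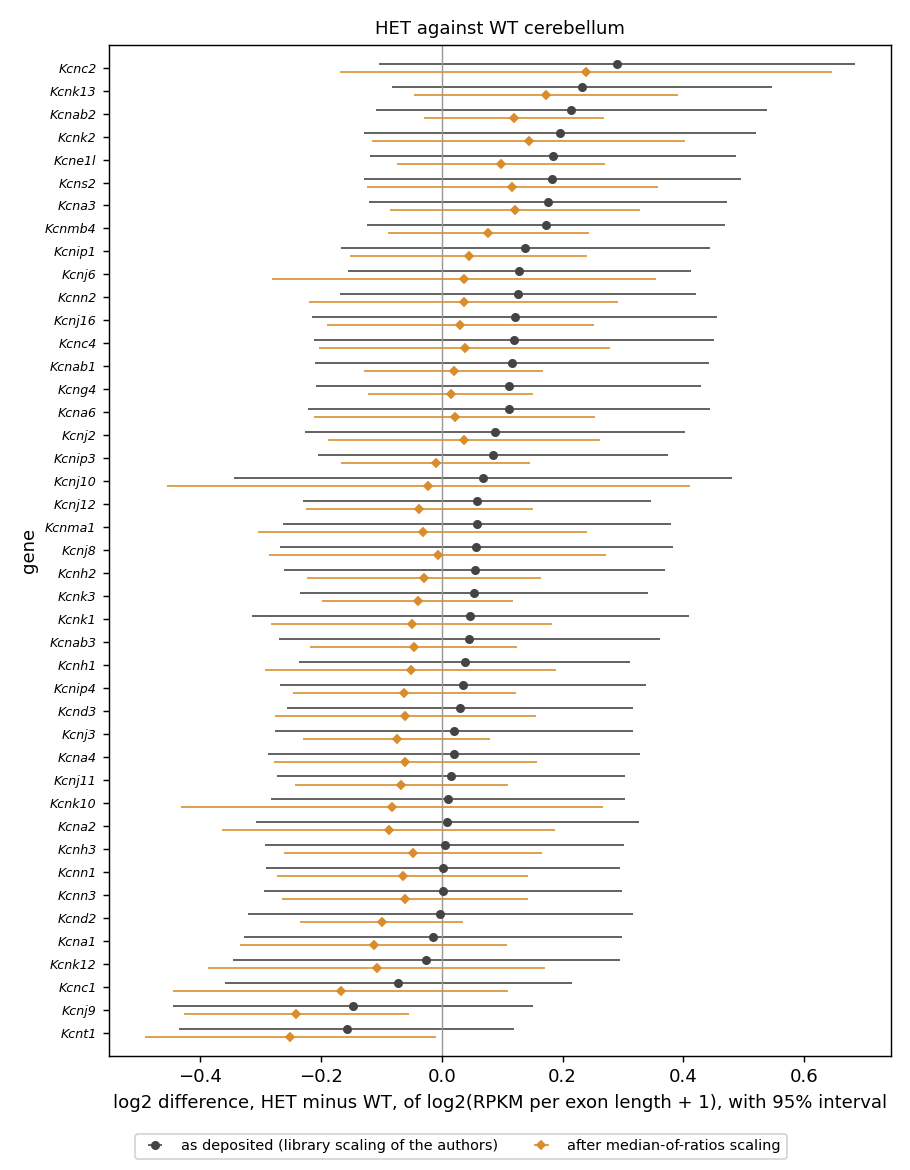
Difference in mean log2(RPKM + 1) per exon length, HET minus WT (x axis), for 43 of the protein-coding potassium channel genes with a mean of at least 1 RPKM (y axis), with limma's 95% interval, as deposited (dark circles) and after median-of-ratios scaling (orange diamonds). Most deposited differences are slightly above 0 and most scaled ones slightly below; the scaled intervals of Kcnj9 and Kcnt1 alone exclude 0, before adjustment.

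The direction of many of these small differences depended on how the libraries were scaled: of the 47 members, 22 were higher in HET as deposited and lower after scaling, and 0 turned the other way. After median-of-ratios scaling, which sets the libraries to a common level, the median over all genes was 0.0002 per exon length, against 0.08 as deposited, and 50.1% of genes were higher in HET. The median of the members was then -0.04; 17 of them were higher in HET and 30 lower. None was called of 47, against 0% of 11983 genes, and 2 had an unadjusted p under 0.05, against 4.68% of all genes. These were Kcnj9, with a scaled difference of -0.24 (95% interval -0.43 to -0.05) and an unadjusted p of 0.017, and Kcnt1, with -0.25 (95% interval -0.49 to -0.01) and 0.043. Their adjusted p was 0.84 in limma. On the deposited scale too, the HET means of Kcnj9 and Kcnt1 were below the WT means. After scaling, the groups did not overlap for 4 of 47 members, against 10.1% of all genes, 5.55% with HET higher and 4.58% with HET lower. HET libraries were higher for Kcnab2 and Kcnk13 and lower for Kcnd2 and Kcnj9, while the groups of Kcna3, Kcnmb4 and Kcnt1 overlapped on that scale. On deposited FPKM, scaling gave 0 of 21 members called, against 0% of 6342 genes, with 7 higher and 14 lower, where 57.1% of all genes were higher. Per exon length, all 8 members with a lower HET mean as deposited stayed lower after scaling, among them Kcna1, Kcnc1, Kcnj9 and Kcnt1. The 17 members that were higher after scaling were also higher as deposited. Kcnab2, Kcna3, Kcne1l, Kcnk13 and Kcnc2 were among these 17.

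A test on approximate read numbers, limma with voom weights and the same scaling, reached members of lower level. It tested 71 of the 94 members and called 0, as for all 14491 genes, or 0%. HET was higher for 33 members and lower for 38, and 49.2% of all genes were higher. At an unadjusted p under 0.05 it gave 3 members, Kcnj9, Kcnt1 and Kcnj14, against 4.61% of all genes. Kcnj14 encodes an inward rectifier and rested on few reads, about 15.9, 31.7 and 18.8 reads in HET libraries and 10.9, 4.0 and 14.9 reads in WT libraries. All HET libraries were above all WT libraries in reads. Its log2 difference was 1.28 (95% interval 0.33 to 2.22), with an unadjusted p of 0.014 and an adjusted p of 0.86 in this limma fit. Kcnj14 was picked for its values, which makes them a description.

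WT library 2 was low for most members, as it was for most genes. It held the lowest value of 35 of the 47 members at 1 RPKM or more, which is 74.5%, against 74.0% of all genes. After scaling it was the lowest for 12 of 47, and HET library 2 for 13. The median coefficient of variation of the members was 9.85% in HET and 13.4% in WT libraries as deposited, and 8.46% in HET and 9.30% in WT libraries after scaling. Over all genes it was 10.7% in HET and 14.3% in WT as deposited, and 8.02% in HET and 7.76% in WT after scaling. The summed level of the 94 members followed the same libraries, with 931.8, 1023 and 988.1 RPKM per exon length in HET libraries, against 1040, 830.0 and 1002 RPKM in WT libraries.

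The composition of the family by class was close in HET and WT cerebellum. The shares do not depend on library scaling, but they do depend on the length by which reads are divided. With the union of exons Kcnab1 came to 18.0 RPKM and Kcnip1 to 9.09 RPKM, while Kcna1 came to 75.8 RPKM and Kcna2 to 52.5 RPKM. On the deposited scale Kcna1 averaged 38.8 FPKM, and the highest Kv-associated gene, Kcne1l, 8.64 FPKM. The order of the Kv-associated and Kv1 classes below thus holds for 1 transcript per gene only. Subunits associated with Kv channels made up 24.6% ± 0.587 of the summed RPKM in HET libraries and 23.6% ± 0.951 in WT libraries (SD, n = 3 each). Kv1 genes took 16.6% ± 1.02 in HET and 17.0% ± 1.23 in WT libraries, and Kir genes 13.4% ± 0.144 in HET and 13.6% ± 0.0523 in WT libraries. K2P genes took 11.1% ± 0.0842 in HET and 11.1% ± 0.801 in WT libraries. Kv4 genes held 7.68% ± 0.468 in HET and 7.86% ± 0.0489 in WT libraries. BK beta genes, nearly all of it Kcnmb4, took 3.19%, 2.98% and 3.10% in HET libraries, against 2.79%, 2.77% and 2.84% in WT libraries. The BK beta groups did not overlap; the share was not tested, since shares of 1 sum are tied to each other.

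**Figure D4:**
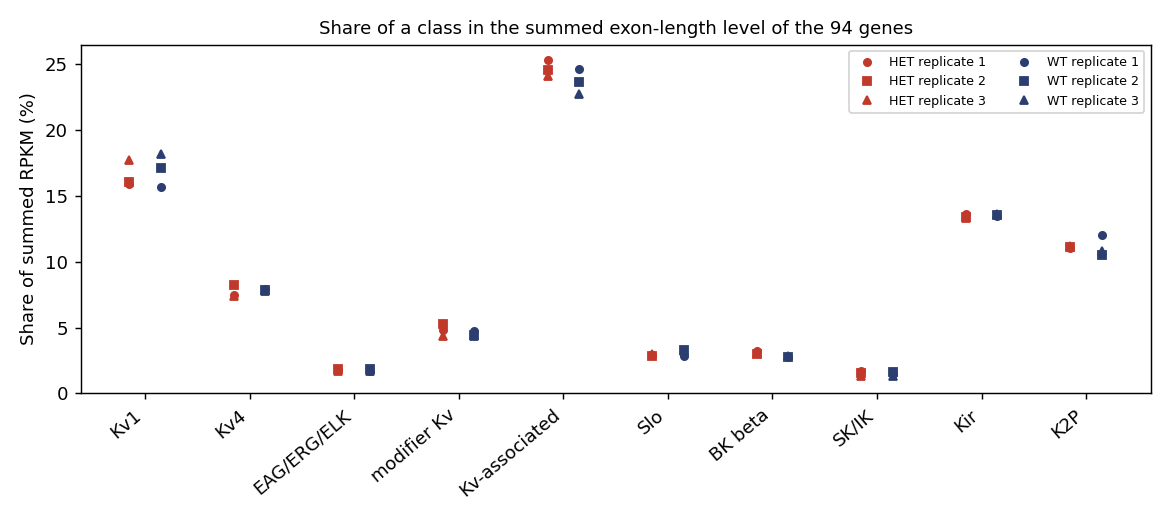
Share of a role class in the summed level per exon length of the 94 potassium channel genes (y axis, %), 1 point per library, with HET libraries in red left of WT libraries in blue; 10 classes are drawn. With the exon length of 1 transcript, Kv-associated subunits have the highest share in both groups, at 22.7% to 25.3%. Kv1 genes follow at 15.7% to 18.1%. This order depends on the length used.

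Some members lie near Reln or next to each other. On chromosome 5 the member closest to Reln was Kcnh2, 1.97 Mb away, with a difference in mean log2(RPKM + 1) of 0.05 (SE 0.15, limma adjusted p = 0.99). Kcnk3 at 8.24 Mb and Kcnip4 at 26.0 Mb had differences of 0.05 (SE 0.14) and 0.04 (SE 0.15) on that scale. Kcnj9 and Kcnj10 lie 11.9 kb apart on opposite strands of chromosome 1, with a difference per exon length of -0.15 (95% interval -0.45 to 0.15) for Kcnj9 and 0.07 (95% interval -0.34 to 0.48) for Kcnj10. Kcnip1 overlaps Kcnmb1, Kcnd3 overlaps Kcnd3os, Kcnab2 overlaps Nphp4, Kcnh3 overlaps Mcrs1, Kcnq1 overlaps Kcnq1ot1 and Kcnk3 overlaps Gm9899, each on opposite strands. The library kit kept the strand, but whether counting used it is not given in the sources used here, so the values of overlapping genes are uncertain.

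Proteins that act with these channels were read from 4 lists. Of 16 measured partners of Kv channels, which anchor or modify them at nodes, synapses and the initial segment, 0 passed the test per exon length, with 12 higher and 4 lower in HET and a median difference of 0.08, against 0.08 and 77.1% higher over all genes. After median-of-ratios scaling 8 of the 16 were higher and 8 lower. The 2 with the smallest unadjusted p, neither of them under 0.05, were Lgi3 and Vapa. Lgi3, a secreted binding partner of Adam22, was at 46.0, 44.7 and 38.6 RPKM in HET libraries, against 39.6, 37.3 and 36.8 RPKM in WT libraries per exon length, with an adjusted p of 0.99 in limma. Vapa, which clusters Kv2 channels at contacts with the endoplasmic reticulum, was at 43.3, 47.0 and 40.7 RPKM in HET libraries, against 45.5, 33.3 and 40.2 RPKM in WT libraries. Of the partners of ATP-sensitive and BK channels 4 of 7 were tested and 0 passed, and the 2 with the smallest p were Lingo1 and Lrrc38. Lingo1, a neuronal membrane protein reported to act on BK channels, was at 14.1, 15.7 and 14.2 RPKM in HET libraries, against 11.8, 11.1 and 11.6 RPKM in WT libraries per exon length. The groups did not overlap, and the difference in mean log2(RPKM + 1) was 0.32 (SE 0.13, limma unadjusted p = 0.025, adjusted p = 0.99), or 0.23 after scaling. Over all genes per exon length, 4.62% had groups that did not overlap with HET higher, and 2.24% had an unadjusted p under 0.05. Lingo1 was picked from its list for its small p. Lrrc38, an auxiliary BK subunit, was at 2.08, 2.97 and 1.80 RPKM in HET libraries, against 1.83, 1.88 and 1.66 RPKM in WT libraries per exon length. Of 4 pacemaker channel genes 2 were tested and 0 passed, and Hcn2 was at 23.8, 29.4 and 25.4 RPKM in HET libraries, against 27.0, 19.5 and 24.4 RPKM in WT libraries per exon length. The groups overlapped for Hcn2. Among genes for the sodium-potassium pump and potassium-chloride transport, 13 of 14 were tested and 0 passed, with 12 higher and 1 lower in HET and a median of 0.11, or 9 higher and 4 lower after scaling. Fxyd6, a regulator of the pump, and Atp1b3, one of its beta subunits, had the smallest p, with differences of 0.19 for Fxyd6 and 0.20 for Atp1b3 on log2(RPKM + 1). Fxyd6 averaged 28.0 ± 2.11 RPKM in HET libraries and 24.6 ± 3.94 RPKM in WT libraries per exon length (SD, n = 3 each). Atp1b3 was at 54.2, 63.9 and 49.5 RPKM in HET libraries, against 58.4, 39.9 and 48.4 RPKM in WT libraries per exon length, and for both genes the groups overlapped.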

How the data were processed

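RNA-seq values of 6 cerebellum libraries, 3 HET and 3 WT, were used as deposited. Per the labels' protocols, a kit that keeps the strand was used on total RNA, and reads were taken from 1 end; mitochondrial and ribosomal reads were filtered out, 2 bases were trimmed from the 5′ end, and reads were aligned to mm10 with TopHat2 and Bowtie 1. The deposited FPKM values were made by the authors with Cufflinks, and their own comparison used Cuffdiff 2.1.1, per the labels. Which annotation and strand setting they used is not given in the sources used here. In HET library 2, 40 values read as dates, and those genes were left out; no potassium channel gene was among them.

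The low values fell on whole reads per kilobase of gene span, so values per exon length were also computed, as deposited value × span (RefSeq, or GENCODE M21 where missing) / exon length of 1 GENCODE M21 transcript, for 24076 genes. This scale was added after the data were seen. In 24 of 30 cases where a gene lay inside another gene on the same strand, the enclosing gene had fewer reads than the nested one. Reads over a nested gene were thus not all given to the enclosing gene. These cases cannot show whether other intronic reads were counted. If they were, values per exon length are too high for genes with long introns, which was not tested. Depths from these steps are approximate, and no effective-length correction was made.

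Genes with a mean of at least 1 were tested on log2(value + 1) by limma 3.58.1 under R 4.3.3, allowing the variance to follow intensity, and p-values were adjusted over all tested genes by the Benjamini-Hochberg method, at 0.05. A pseudocount of 1 understates changes of low genes. For Reln an exact permutation test, two-sided, was run. The fit was run on simulated data with planted changes and independent noise for each gene and library. Those data held no shared differences in scale between libraries, so they cannot show how such differences affect the fit. Alternatives were other pseudocounts, filters and scalings, a replicate block, left-out libraries, no trend, and, added later, values per exon length and voom on approximate reads (genes averaging 10 reads or more). Other steps ran in Python 3.11.15 with scipy 1.17.1, numpy 2.4.6, matplotlib 3.10.9 and pandas 2.3.3.

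By rule, the members named with values were, within each role class, the 2 highest by deposited FPKM among those tested, the 6 smallest unadjusted p in each direction, calls, and members whose groups did not overlap, which gave 18 genes, some of which are not reported here; among partner genes, the 2 smallest unadjusted p in a list. Other members were named after their values were seen. The members and lists were chosen with earlier results of these data known.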

Additional observations from a re-analysis of the deposited data

How the results depend on the processing

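No potassium channel gene was called in any fit run, as deposited or per exon length. Depth limits genes of few reads, such as Kcnj14, and the 3 libraries per group set the width of the intervals. The count of all genes called was unstable: 5 as deposited, 0 with a mean of at least 0.5, 1 with no filter, 0 after median-of-ratios scaling, 0 after quantile normalization, 0 with no trend, 0 per exon length, 67 without both WT 2 and HET 2, and 5 to 62 when each library was left out in turn. Per exon length it was 0, with 1 under no filter, 88 without both WT 2 and HET 2, 19 with scaling besides, and 1 to 32 when each library was left out. The replicate block gave 13 calls as deposited and 16 per exon length, 0 of them potassium channel genes. Deviations of same-numbered libraries had correlations of -0.28, -0.52 and 0.14, and those of other pairs ran from -0.39 to 0.49. With 3 libraries per group these values cannot show whether same-numbered libraries share more than a number. Reln stayed lower in HET under every alternative run for it, from -0.57 to -0.23 on deposited values and -0.63 per exon length.

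The sign of uncalled differences changed for 5 of the 16 members named by rule and given here after median-of-ratios scaling (Kcna2 -0.086, Kcnab3 -0.042, Kcnj11 -0.064, Kcnk1 -0.041, Kcnk3 -0.026), for 6 after quantile normalization (Kcna2 -0.13, Kcnab3 -0.060, Kcng4 -0.0059, Kcnj11 -0.072, Kcnk1 -0.051, Kcnk3 -0.021) and for 9 without both WT 2 and HET 2 (Kcna2 -0.078, Kcna6 -0.094, Kcnab2 -0.0042, Kcnab3 -0.13, Kcnc4 -0.062, Kcng4 -0.080, Kcnj11 -0.11, Kcnk1 -0.16, Kcnk3 -0.034). It changed for 0 of 16 under the other pseudocount, the filters, no trend, the block and the exon length. Without WT 2 alone it changed for 7. With each library left out in turn, differences ran from -0.10 to 0.057 for Kcna1, -0.060 to 0.11 for Kcna2, -0.039 to 0.17 for Kcna6, -0.065 to 0.15 for Kcnab3, -0.050 to 0.14 for Kcnc4, -0.064 to 0.077 for Kcnj11, -0.14 to 0.18 for Kcnk1 and -0.0037 to 0.073 for Kcnk3. The other 8 named members kept their sign there. The cause of these changes was not tested.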
